A study of Mus musculus with 4 samples.

Results

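The proteasome is the protease that degrades ubiquitin-tagged proteins, and 49 genes named for its subunits, activators and assembly factors were examined in thymocytes of mice with and without a Cre that targets the gene of the deubiquitinase USP8. Members were all non-control probes whose name in the array design begins with Psma, Psmb, Psmc, Psmd, Psme, Psmf or Psmg and a number. The rule found 76 of 41174 probes. They belong to 49 genes, of which 47 were bright enough to test among 13062 genes in all. One of the 47, Psmc3ip, shares the name pattern but encodes no proteasome subunit, and it is included in every count over the 47.

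RNA came from sorted DP thymocytes (CD4+CD8+), immature T cells that display the CD4 and the CD8 co-receptor together, of untreated, sex-matched littermates aged 6 to 12 weeks. All mice carried loxP-flanked Usp8 alleles. The control group, USP8ff, had no Cre, and USP8ff_CD4Cre had Cre under Cd4 regulatory sequences. With no group of Cre alone, an effect of Cre and one of the deletion cannot be told apart. Each of the 4 samples pooled cells of 2 mice (8 mice in all) and was hybridised to its own 1-colour array, 2 arrays per group. P-values measure the spread between these pools, and the small number of arrays limits the precision. Usp8 itself gave -0.23 and -0.40 in USP8ff against -1.03 and -1.23 in USP8ff_CD4Cre (log2, with the array's own 75th percentile as 0), a difference of -0.81 ± 0.13 (SE, adjusted p = 0.60 in limma), so that 0.57-fold of the control signal remained. In these arrays a lower signal from fewer cells of a type and one from less RNA per cell cannot be told apart.

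The proteasome is built from a barrel-shaped core of alpha and beta subunits and a regulatory particle that binds ubiquitin chains, unfolds the substrate with a ring of ATPases and feeds it into the core. The proteolytic sites of the constitutive core lie in the products of Psmb5, Psmb6 and Psmb7. In lymphoid cells, and after interferon, Psmb8, Psmb9 and Psmb10 take their places and form the immunoproteasome, which together with the PA28 activator (Psme1 and Psme2) favours peptides that fit MHC class I. Cortical thymic epithelium uses a further subunit, Psmb11, which shapes the peptides on which CD8 T cells are selected.

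The probes of the exchangeable subunits are shown first, because the immune and constitutive genes are related in sequence and a shared probe site could mix their signals. Each is given 5′ to 3′, with capitals for the bases that match its partner in the best ungapped overlap of the pair.
Psmb8 (mm9, chr17:34337771-34337830, plus strand): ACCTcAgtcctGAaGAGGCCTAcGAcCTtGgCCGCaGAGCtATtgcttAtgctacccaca
Psmb5 (mm9, chr14:55233161-55233220, minus strand): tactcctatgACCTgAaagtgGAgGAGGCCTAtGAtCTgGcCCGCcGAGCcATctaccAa
Psmb9 (mm9, chr17:34319174-34319233, minus strand): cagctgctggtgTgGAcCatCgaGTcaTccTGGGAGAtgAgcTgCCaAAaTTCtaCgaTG
Psmb6 (mm9, chr11:70341014-70341073, plus strand): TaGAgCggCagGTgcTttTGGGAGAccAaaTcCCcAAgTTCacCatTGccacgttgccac
The probes of Psmb8 and Psmb5 matched at 31 of 50 overlapping bases (62.0%), with a longest shared run of 8 bases. Those of Psmb9 and Psmb6 matched at 27 of 48 bases (56.3%), with a run of 7. For Psmb10 and Psmb7 the match was 23 of 56 bases (41.1%) with a run of 6. Each overlap was the one with the most matches, and no chance level was computed. Probes were compared with each other and not with the RNA of the partner gene, so binding to that RNA was not tested.

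No proteasome gene passed the test of genotype. In limma, 0 of 47 genes had a Benjamini-Hochberg adjusted p under 0.05, where 0% of all genes did, and the adjusted p of the 47 ran from 0.67 to 0.999. At an unadjusted p under 0.05 there was 1 gene, Psmb3, of 47 (2.13%), against 7.43% of all genes. It was higher in USP8ff_CD4Cre, as were 3.97% of all genes, and 0 of 47 were lower, against 3.46%. Over all genes this was 518 higher and 452 lower, and with median scaling 337 higher and 485 lower. No proteasome gene, 0 of 47, differed by over 2-fold, where 0.467% of all genes did. The log2 difference, USP8ff_CD4Cre minus USP8ff, was positive in 43 of 47 genes, where 54.8% of all genes were positive. Its median was 0.12, a 1.08-fold higher signal, against 0.021 over all genes. The values ran from -0.059 (Psma4) to 0.27 (Psmb3), with standard errors of 0.10 to 0.16. The 95% intervals of 46 of the 47 genes included 0. Over all 47 they reached no lower than -0.47 and no higher than 0.59 on the log2 scale. Of all genes, 16.9% differed by more than the largest proteasome difference. The authors' deposited table of 78 probes in their own comparison listed 0 of the 76 proteasome probes.

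**Figure D1:**
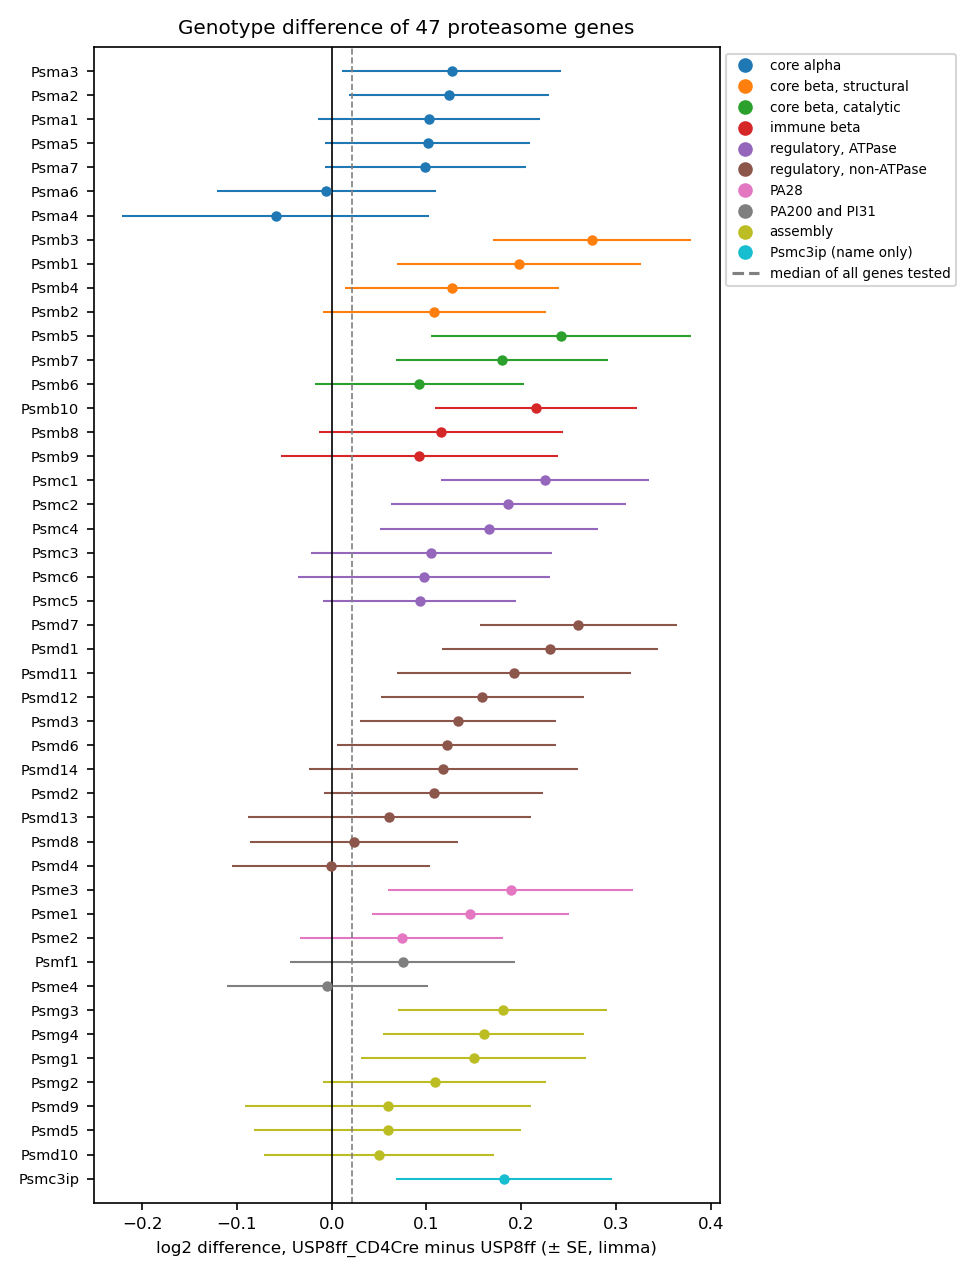
Log2 difference between genotypes (x axis, USP8ff_CD4Cre minus USP8ff, bars ± SE from limma, 2 arrays per group) for the 47 tested genes, coloured by role. Of the 47 points, 43 lie above 0, between the zero line and 0.27, and the dashed line marks the median of all genes tested at 0.021.

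Most of the shift lay on 1 array. In 41 of 47 proteasome genes the highest of the 4 signals was that of USP8ff_CD4Cre replicate 2, where this array was highest for 31.7% of all genes. Replicate 1 of USP8ff_CD4Cre was highest in 3 (18.8% of all genes), USP8ff replicate 1 in 2 (22.1%) and USP8ff replicate 2 in 1 (27.5%). USP8ff_CD4Cre replicate 2 exceeded replicate 1 of the same genotype in 44 of 47 genes, by a median of 0.13. Over all genes the median of that difference was 0.0021. Against the mean of both USP8ff arrays the median proteasome gene was 0.19 higher in replicate 2 and 0.058 higher in replicate 1 of USP8ff_CD4Cre. The same medians over all genes were 0.020 and 0.022. Both USP8ff_CD4Cre arrays lay above both USP8ff arrays in 27 of 47 genes (57.4%), against 24.3% of all genes. The count was 18 with median scaling (19.2% of all genes) and 19 with quantile normalization (21.5%). In 0 genes did they lie below both, against 16.3%. Taken alone, replicate 2 was above both USP8ff arrays in 44 of 47 genes (39.0% of all genes) and replicate 1 in 27 of 47 (35.8% of all genes). Without USP8ff_CD4Cre replicate 2 the median difference of the 47 genes was 0.058 and 36 were positive. Over all genes the median was then 0.023, with 56.2% positive. Without replicate 1 of that group, when 49 genes could be tested, the median was 0.19. All 49 were positive, where 55% of all genes were. Psma8 and Psmb11 entered because USP8ff_CD4Cre replicate 2, where they were well above background, then stood alone for its group. Their positive sign is therefore no support.

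**Figure D2:**
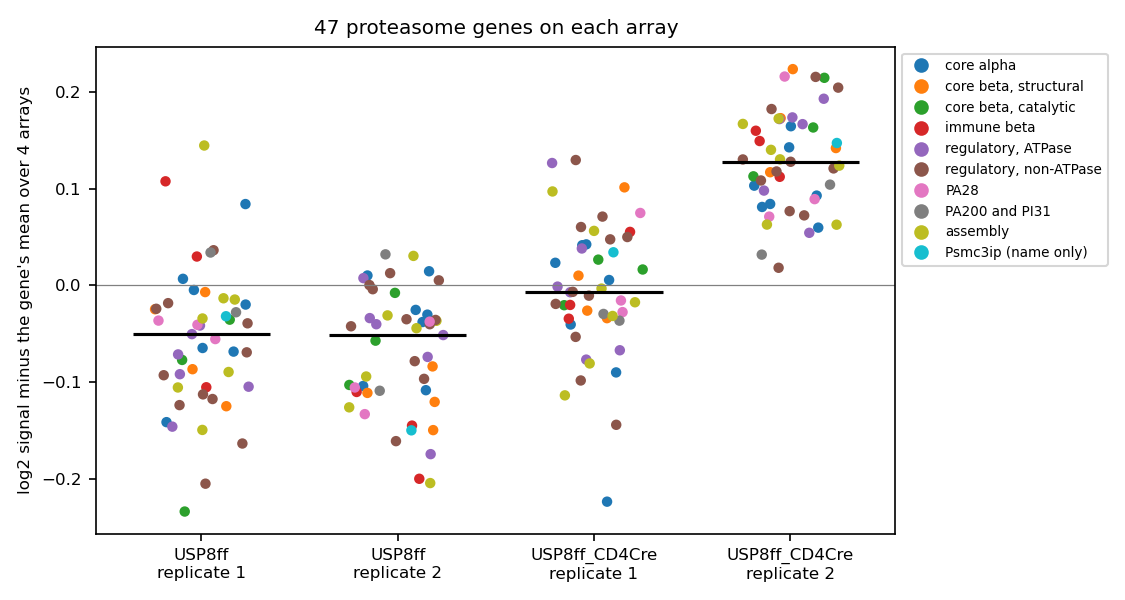
Log2 signal of each of the 47 genes minus its mean over the 4 arrays (y axis), by array (x axis); points are genes coloured by role, and black lines are medians over the genes. The points of USP8ff_CD4Cre replicate 2 all lie above 0, while those of the other 3 arrays spread on both sides of it.

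Proliferation genes were highest on the same array. All 32 measured had positive differences (median 0.49), where 54.8% of all genes did. At an unadjusted p under 0.05, 16 of 32 were higher (3.97% of all genes), and 0 passed adjustment in limma. In all 32 the highest signal was that of USP8ff_CD4Cre replicate 2 (31.7% of all genes). Set against the USP8ff mean, their median was 0.28 higher in USP8ff_CD4Cre replicate 1 and 0.70 higher in its replicate 2. The summed level of the list, in multiples of the 75th percentile signal, was 705 to 794 in USP8ff and 891 to 1120 in USP8ff_CD4Cre. The part of this list in the proteasome result was not tested.

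The alpha subunits form the outer rings of the core and gate its channel. Of the 8 genes, 7 were tested, 5 with positive differences, and 0 passed (median 0.10). Psma3 had the highest difference of the group. Its log2 signals were 2.93 and 3.08 in USP8ff, against 3.09 and 3.17 in USP8ff_CD4Cre, a difference of 0.13 ± 0.12 (SE). The groups did not overlap, but the gap between them was smaller than the distance between the arrays of either group. Psma4 had the lowest, with 2.47 and 2.36 in USP8ff and 2.16 and 2.55 in USP8ff_CD4Cre (-0.059 ± 0.16). Its 2 USP8ff_CD4Cre arrays were the lowest and the highest of the 4, and both kept probes of the gene had a negative mean difference. Psma8, an alpha subunit of male germ cells, was not tested. Its probe was well above background on 1 array of each genotype, with signals from -4.64 to -3.18.

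The structural beta subunits Psmb1, Psmb2, Psmb3 and Psmb4 lie in the inner rings and do not cleave. All 4 had positive differences (median 0.16), and 0 passed adjustment. Psmb3 was the proteasome gene with the smallest p. It gave 6.10 and 6.08 in USP8ff, against 6.33 and 6.40 in USP8ff_CD4Cre. The difference was 0.27 ± 0.10, a 1.21-fold higher signal, with an unadjusted p of 0.045 and an adjusted p of 0.67 in limma. With quantile normalization the Psmb3 difference was 0.16 (unadjusted p = 0.17 in limma). The groups were separated by more than the spread within either. The second Psmb3 probe gave 4.71 and 4.64 in USP8ff and 4.76 and 4.95 in USP8ff_CD4Cre, a difference of 0.18. Psmb2 had the smallest difference of these 4 genes, 0.11 ± 0.12, with signals of 1.30 and 1.24 against 1.29 and 1.47, and its groups overlapped.

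The constitutive catalytic subunits had positive differences in 3 of 3 genes (median 0.18), and 0 passed. Psmb5, which carries the chymotrypsin-like activity that proteasome drugs block, had 3.84 and 4.07 in USP8ff and 4.10 and 4.29 in USP8ff_CD4Cre (0.24 ± 0.14). Psmb6, with the caspase-like activity, had 5.68 and 5.66 against 5.69 and 5.83 (0.093 ± 0.11). Psmb7, with the trypsin-like activity, had 2.70 and 2.67 against 2.79 and 2.94 (0.18 ± 0.11). In each of the 3 genes both USP8ff_CD4Cre arrays were above both USP8ff arrays (24.3% of all genes), with replicate 2 the highest. The gap for Psmb6 was small beside the distance between its 2 USP8ff_CD4Cre arrays.

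The immune subunits were well above background on all 4 arrays. Their differences were positive in 3 of 3 genes (median 0.12) and 0 passed. Psmb8, the immune counterpart of Psmb5, had 5.69 and 5.51 in USP8ff and 5.63 and 5.81 in USP8ff_CD4Cre (0.12 ± 0.13, adjusted p = 0.85 in limma). Psmb9, that of Psmb6, had 4.03 and 3.72 against 3.90 and 4.03 (0.092 ± 0.15, adjusted p = 0.89 in limma). In both genes the genotypes overlapped, and the order of the arrays was the same, with USP8ff_CD4Cre replicate 2 highest, closely followed by USP8ff replicate 1 for Psmb9, and USP8ff replicate 2 lowest. Psmb10, that of Psmb7, differed from this order. It gave 4.74 and 4.73 in USP8ff, against 4.90 and 5.0 in USP8ff_CD4Cre (0.22 ± 0.11, adjusted p = 0.70 in limma), and the groups did not overlap. The median of the 3 immune subunits moved with single arrays. It was 0.028 without USP8ff replicate 2, 0.026 without USP8ff_CD4Cre replicate 2, 0.22 without USP8ff replicate 1 and 0.21 without USP8ff_CD4Cre replicate 1, and 0.031 with quantile normalization. The sign for Psmb9 depended on 1 array, and without USP8ff replicate 2 its difference was -0.062.

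The exchange of subunits was read as the log2 signal of the immune gene minus that of its constitutive counterpart on the same array, since only a shift of this value between genotypes can be interpreted and not its size. For Psmb8 minus Psmb5 it was 1.85 and 1.44 in USP8ff and 1.52 and 1.52 in USP8ff_CD4Cre, a shift of -0.13 (exact two-sided permutation p = 1). For Psmb9 minus Psmb6 it was -1.65 and -1.94 against -1.79 and -1.79, a shift of -0.00023 (exact p = 1). For Psmb10 minus Psmb7 it was 2.04 and 2.06 against 2.10 and 2.06, a shift of 0.036 (exact p = 0.33). In the first 2 pairs both USP8ff_CD4Cre values lay between the USP8ff values. An exact test of 2 arrays against 2 cannot give a p below 0.33, so none of these 3 comparisons could have passed. The shift of Psmb8 minus Psmb5 lay within the SD of 0.28 between its USP8ff arrays.

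**Figure D3:**
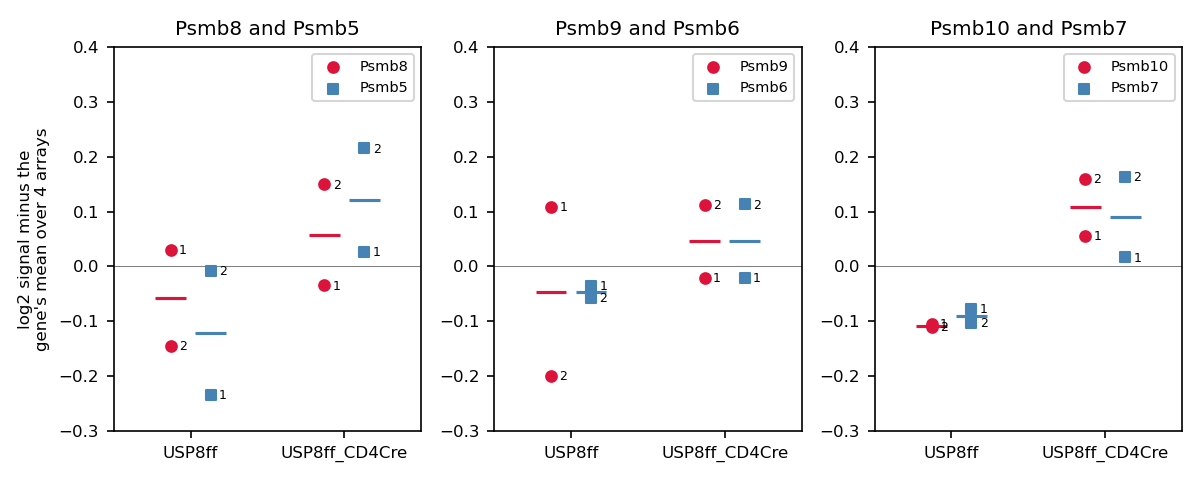
Log2 signal minus the gene's mean over the 4 arrays (y axis) for each immune subunit (circles) and the constitutive subunit it replaces (squares), by genotype; numbers beside points are replicates and short lines are group means. In Psmb8 and Psmb9 the genotypes overlap, while in Psmb10, Psmb5, Psmb6 and Psmb7 both USP8ff_CD4Cre arrays lie above both USP8ff arrays.

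Psmb11 gave no signal to test. One of its probes was well above background on none of the arrays, and the other on 1 array, USP8ff_CD4Cre replicate 2, with signals from -6.26 to -4.39. The gene neighbours Psmb5, whose probe was well above background throughout. Of 12 thymic epithelium markers, 4 were measured, Epcam, Krt5, Ccl25 and Ly75, with differences of -0.47, 0.22, -0.13 and 0.16 (median 0.012). Krt5 was well above background on 3 arrays only, with its lowest signals in USP8ff, and so entered through 1 group. With the filter on all 4 arrays the median was -0.13. Foxn1, the transcription factor of thymic epithelium, and Prss16, a protease of its cortex, did not pass the filter on dim probes. The summed level of the 4 was 2.82 to 3.0 in USP8ff and 2.67 to 2.87 in USP8ff_CD4Cre.

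The regulatory particle was represented by 17 genes, all tested, of which 16 had positive differences (median 0.12) and 0 passed. Its 6 ATPases, Psmc1 to Psmc6, which unfold substrates, were positive in 6 of 6 (median 0.14). Psmc1 had the highest difference. It gave 4.44 and 4.31 in USP8ff, against 4.61 and 4.59 in USP8ff_CD4Cre (0.23 ± 0.11), so that the groups were further apart than the arrays within them. Psmc5 had the lowest (0.093 ± 0.10), with 2.94 and 2.93 against 3.02 and 3.04. Its second kept probe had the opposite sign, -0.082.

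Of the 11 non-ATPase subunits, 10 had positive differences (median 0.12). Psmd7, a partner of the deubiquitinating subunit Psmd14, was highest, with 2.37 and 2.44 in USP8ff and 2.67 and 2.67 in USP8ff_CD4Cre (0.26 ± 0.10, unadjusted p = 0.053 and adjusted p = 0.67 in limma). The groups did not overlap, and all 3 kept Psmd7 probes had positive differences, from 0.073 to 0.26, with 0.15 for their mean. Psmd14, which removes ubiquitin chains from substrates at the particle, had 4.37 and 4.33 against 4.31 and 4.62 (0.12 ± 0.14), and its groups overlapped. Psmd4, a ubiquitin receptor, was the lowest, with 4.27 and 4.20 against 4.21 and 4.25 (-0.00079 ± 0.10). Here the USP8ff_CD4Cre arrays lay inside the USP8ff range. Psmd1, the large scaffold of the base, had 1.99 and 1.90 against 2.11 and 2.25 (0.23 ± 0.11), with no overlap.

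A dim Psmd11 probe was singled out after its values were seen. It gave -4.45 and -4.63 in USP8ff and -3.79 and -3.70 in USP8ff_CD4Cre, but it was well above background on 1 array only and lies on the strand opposite to the bright probe of the gene. The third Psmd11 probe, on the same strand as the dim one, was well above background on no array. The Psmd11 probe that was bright on all 4 arrays had 4.31 and 4.53 against 4.59 and 4.64 (0.19 ± 0.12).

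The PA28 activators open the core without ATP. All 3 genes had positive differences (median 0.15; 54.8% of all genes were positive) and 0 passed. In all 3 both USP8ff_CD4Cre arrays lay above both USP8ff arrays, where 24.3% of all genes did so. Psme1 and Psme2, the interferon-inducible chains, had 5.06 and 5.0 against 5.18 and 5.17 (Psme1, 0.15 ± 0.10) and 4.94 and 4.94 against 4.97 and 5.07 (Psme2, 0.074 ± 0.11). Psme3, the nuclear PA28 gamma chain, had 0.91 and 0.83 against 0.94 and 1.18 (0.19 ± 0.13). For Psme2 and Psme3 the gap between groups was smaller than the distance between the USP8ff_CD4Cre arrays. Psme4, the PA200 activator, had a difference near 0. It gave 5.0 and 5.06 in USP8ff, against 4.99 and 5.06 in USP8ff_CD4Cre (-0.0045 ± 0.11, 95% interval -0.27 to 0.26). Psmf1, the PI31 regulator, had 0.21 and 0.066 against 0.15 and 0.28 (0.075 ± 0.12).

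Assembly factors are chaperones that leave before the particle is complete. All 7 had positive differences (median 0.11) and 0 passed. Psmg3, a chaperone of the alpha ring, was highest, with 2.82 and 2.93 in USP8ff and 3.02 and 3.09 in USP8ff_CD4Cre (0.18 ± 0.11). Psmd10, also known as gankyrin and a chaperone of the ATPase ring, was lowest, with 1.08 and 1.06 against 1.01 and 1.22 (0.050 ± 0.12). The former did not overlap and the latter did. Psmc3ip, which the naming rule also took in, encodes a protein of meiotic recombination and no proteasome subunit. It had 1.35 and 1.23 against 1.42 and 1.53 (0.18 ± 0.11), a difference inside the range of the true subunits.

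The medians of the role groups were 0.12 for the constitutive core, 0.12 for the immune subunits, 0.12 for the regulatory particle, 0.15 for PA28 and 0.11 for assembly factors. With quantile normalization they were 0.028, 0.031, 0.056, 0.086 and 0.076 in the same order. No test of one group against another was run, since members of a group share arrays and are not replicates. Levels, again with each array's 75th percentile as 0, were 1.33 to 6.23 in the constitutive core, 3.92 to 5.66 for the immune subunits, 0.77 to 7.34 in the regulatory particle, 0.97 to 5.10 in PA28 and 0.97 to 2.96 for assembly factors. Probes bind with different strength, so these levels rank neither genes nor groups. Over all 47 genes the levels ran from 0.18 to 7.34, above the 75th percentile of the array in every case, where the median gene tested was at 0.87.

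**Figure D4:**
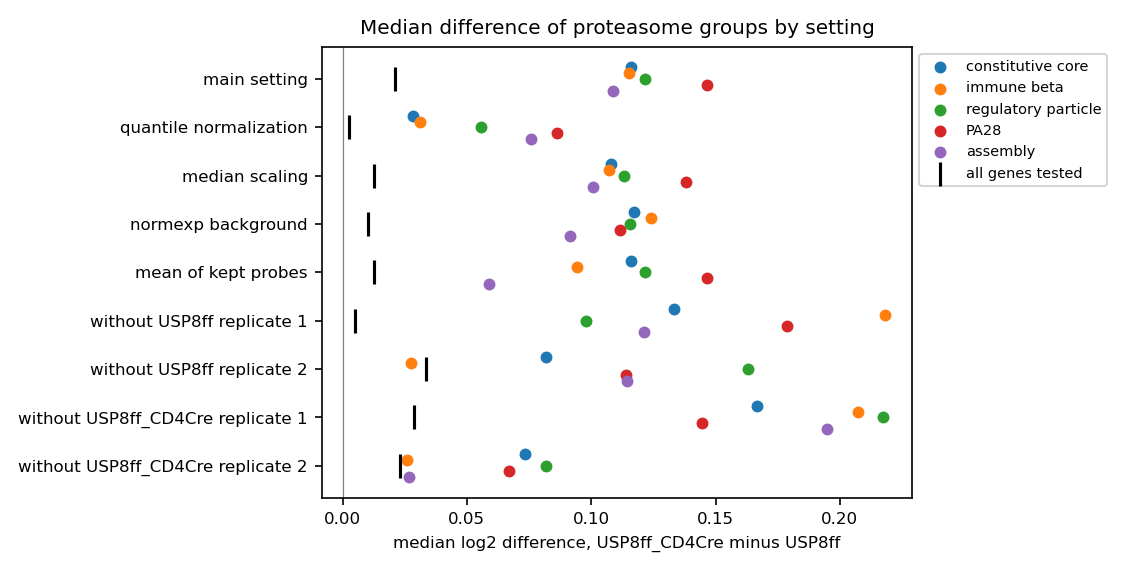
Median log2 difference (x axis, USP8ff_CD4Cre minus USP8ff) of 5 role groups and of all genes tested (black bars) under the main setting, under 4 other ways of processing and with each array left out in turn (y axis). The medians of the regulatory particle run from 0.056 with quantile normalization to 0.22 without USP8ff_CD4Cre replicate 1.

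Probes of the same gene agreed only in part. Of the 76 probes, 67 passed the filter, each well above background on all 4 arrays, and 55 of these had a positive difference. Of 17 genes with several kept probes, 7 had probes of both signs, Psmc5, Psmc6, Psmd14, Psmd9, Psme4, Psmf1 and Psmg2. In these 7 genes every difference was between -0.12 and 0.12. Of the 9 probes left out, 4 were not well above background on any array.

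Partners of the proteasome outside the naming rule were also examined. Of 24 listed, 23 were measured, 17 with positive differences, where 54.8% of all genes were positive. The median was 0.11, against 0.021 over all genes. USP8ff_CD4Cre replicate 2 was the highest array for 11 of the 23, and for 31.7% of all genes. At an unadjusted p under 0.05 there were 0, and 0 passed adjustment in limma. Usp14, a deubiquitinase bound to the regulatory particle, had 0.60 and 0.53 in USP8ff and 0.78 and 0.90 in USP8ff_CD4Cre (0.28 ± 0.11, adjusted p = 0.67 in limma). With the mean of kept probes the Usp14 difference was 0.16. Ubqln4, a shuttle for ubiquitinated substrates, had -1.09 and -0.98 against -0.81 and -0.67 (0.29 ± 0.12). Sem1, a small subunit of the regulatory particle, had 6.78 and 6.75 against 6.98 and 6.94 (0.20 ± 0.10). These 3 were named for having the smallest p of their list. Chosen after its values were seen, Nfe2l1, the transcription factor that raises proteasome genes when proteolysis falls short, had 2.77 and 2.97 against 2.87 and 2.84 (-0.012 ± 0.12), and the groups overlapped.

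Genes of peptide loading and the interferon response, which are regulated with the immune subunits, had positive differences in 8 of 10 measured (54.8% of all genes). Their median was 0.083, against 0.021 over all genes, with 0 at an unadjusted p under 0.05 and 0 after adjustment in limma. Among those with the smallest p were Pdia3, a chaperone of class I loading (0.14 ± 0.11), and B2m, the light chain of MHC class I (0.17 ± 0.16). Without USP8ff_CD4Cre replicate 2 the median of this list was -0.0094. Interferon-stimulated genes outside this list mostly had the opposite sign to the immune subunits. Of 30 measured, 25 had negative and 5 positive differences (median -0.26), where 54.8% of all genes were positive. At an unadjusted p under 0.05, 7 of the 30 were lower (3.46% of all genes), and 0 passed adjustment in limma. Oasl2, Ifit1 and Iigp1 were well above background on 3 arrays only, with their lowest signal on USP8ff_CD4Cre replicate 1. They entered through 1 group, and Oasl2 and Ifit1 are among the 7. Set against the USP8ff mean, the median of the 30 was -0.34 in USP8ff_CD4Cre replicate 1 and -0.079 in its replicate 2. Ifit3 had the smallest p, with a difference of -0.81 ± 0.18.

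Psmb9 shares its upstream region with Tap1, a chain of the peptide transporter, the 2 genes being read in opposite directions from start sites 225 bases apart. Tap1 had signals of 1.05 and 0.92 in USP8ff and 0.78 and 1.03 in USP8ff_CD4Cre (-0.079 ± 0.14). Like Psmb9 it overlapped between genotypes and was higher in replicate 2 than in replicate 1 of USP8ff_CD4Cre. The region between the start sites is shown because both genes are read from it, from RefSeq (GRCm38.p6), on the strand of Psmb9, with capitals for a GC box (GGGCGG) and a CCAAT box, which appears here as its reverse complement.
Psmb9 (GRCm38.p6, chr17:34187331-34187555, minus strand): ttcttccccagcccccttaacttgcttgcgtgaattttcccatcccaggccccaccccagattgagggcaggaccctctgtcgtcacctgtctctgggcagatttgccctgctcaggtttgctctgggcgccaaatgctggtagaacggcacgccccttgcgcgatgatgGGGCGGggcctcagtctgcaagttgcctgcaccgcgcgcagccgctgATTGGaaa

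Upstream sequences were found in RefSeq for 41 of the 49 genes, 44 promoters in all, and 250 bases before each start site were searched on both strands. A GC box (GGGCGG) stood in 23 of 44 (52.3%), against 32.7% of 32851 promoters. A CCAAT box (CCAAT) stood in 15 (34.1%, all promoters 33.8%), and the antioxidant response element through which Nfe2l1 acts (TGACNNNGC) in 5 (11.4%, all promoters 10.2%). The interferon-stimulated response element (GAAA, any 2 bases, GAAA) stood in 3 (6.82%, all promoters 2.98%) and the interferon-gamma-activated site (TTCNNNGAA) in 2 (4.55%, all promoters 7.02%). The median promoter had 14.5 CpG dinucleotides and 57.6% GC, against 6 and 52.4% over all promoters, and the proteasome promoters ran from 2 to 35 CpG. Such matches are descriptions and not binding sites.

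The promoters of 3 subunits described above are shown with these matches. That of Psmb3, the gene with the smallest p, held CCAAT boxes at 2 places and, as its reverse complement, an interferon-stimulated response element (all in capitals).
Psmb3 (GRCm38.p6, chr11:97703184-97703433, plus strand): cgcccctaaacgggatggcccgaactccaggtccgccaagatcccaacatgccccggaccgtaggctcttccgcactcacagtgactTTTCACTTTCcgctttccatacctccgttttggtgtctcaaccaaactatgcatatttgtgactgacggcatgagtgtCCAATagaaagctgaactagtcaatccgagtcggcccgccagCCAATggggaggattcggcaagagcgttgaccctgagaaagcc
Psmb5 and its immune counterpart Psmb8 differed in their matches, with an antioxidant response element in the former and an interferon-gamma-activated site in the latter (capitals).
Psmb5 (GRCm38.p6, chr14:54617996-54618245, minus strand): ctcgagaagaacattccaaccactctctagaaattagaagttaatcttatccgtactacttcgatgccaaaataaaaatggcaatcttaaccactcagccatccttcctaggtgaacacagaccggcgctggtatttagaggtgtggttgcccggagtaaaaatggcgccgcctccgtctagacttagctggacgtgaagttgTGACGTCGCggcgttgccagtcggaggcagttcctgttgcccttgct
Psmb8 (GRCm38.p6, chr17:34197945-34198194, plus strand): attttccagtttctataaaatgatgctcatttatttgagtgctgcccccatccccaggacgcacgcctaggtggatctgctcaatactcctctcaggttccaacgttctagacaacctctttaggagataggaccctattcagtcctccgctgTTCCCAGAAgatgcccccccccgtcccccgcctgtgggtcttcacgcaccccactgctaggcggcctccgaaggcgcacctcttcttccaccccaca

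The sort was checked against markers. All 18 DP thymocyte markers were measured, 5 with positive and 13 with negative differences (median -0.058), where 54.8% of all genes were positive. Rag2, named for the smallest p of this list, had -0.33. The summed level was 2065 to 2207 in USP8ff and 2176 to 2207 in USP8ff_CD4Cre. Such sums weigh the brightest genes most, here Dntt (0.10) and Cd8b1 (0.086), and say little of dim ones such as Rag2. Of 19 macrophage and dendritic cell markers, which are rich in immune subunits, 8 were measured and 7 had negative differences (median -0.32, Ctss -1.96), and the summed level was 3.86 to 4.06 in USP8ff and 2.83 to 2.98 in USP8ff_CD4Cre. C1qb, the only gene of these 8 with a positive difference (0.25), was well above background on 3 arrays only. Csf1r, Adgre1, Itgax and Itgam did not pass the filter. Of 16 mature thymocyte markers, 15 were measured and 12 had negative differences (median -0.46), with summed levels of 383 to 384 and 372 to 395. Most of that sum came from the bright genes Ifngr1 (0.070), Klf2 (0.23) and Cd52 (-0.46), so it says little of the dim ones. Of these 15, Il7r, Itgae and Gimap4 were well above background in USP8ff alone and so entered through the group where they were high. With the filter on all 4 arrays the median was -0.20. NK and innate markers had 5 of 12 measured (median -0.86, Nkg7 -2.09), with sums, mostly from Gzma, of 4.28 to 4.37 and 3.94 to 5.29. Of the 5, 3 had negative and 2 positive differences (Gzma 0.42, Tbx21 0.15), and Il2rb was well above background on 3 arrays only. B cell markers had 3 of 10 measured (median -0.078), 1 positive (Igh-6 0.53) and 2 negative (Blnk -0.75, Cd79b -0.078). Their sums, mostly from Igh-6, were 73.7 to 83.0 and 99.9 to 119, with Ms4a1 below the filter. Erythroid markers had 3 of 10 measured (median 0.31), 2 positive (Hba-a2 0.81, Hbb-bt 0.31) and 1 negative (Car1 -0.30). Their sums were 0.32 to 0.37 and 0.33 to 0.63. The part of these cells in the proteasome values was not tested.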

How the data were processed

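Cy3-labelled cRNA from 500 ng of RNA was hybridised to Agilent arrays, per the labels' protocols. The 4 arrays shared 1 slide, and Feature Extraction 10.7.3.1 subtracted background and detrended each array, per the file headers. The deposited scanner files hold each spot's intensity, with no scaling across arrays. In the authors' deposited table each probe has a fold (a ratio) and a p-value; sources used here do not give its test. Another table holds 4 value columns that match no label and were left aside.

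Processed signals were put on the log2 scale and centred, array by array, on the 75th percentile of 43379 non-control spots. Outlier spots were dropped and spots of a probe averaged. Between 45.0% and 48.9% of probes per array were well above background, and no proteasome spot was saturated. A probe entered (46.2% did) if well above background on both arrays of either group, and the brightest such probe stood for its gene. RefSeq accessions named 26690 probes, and others kept the design name. The genotype test was limma 3.58.1 under R 4.3.3 (lmFit, eBayes, Benjamini-Hochberg over 13062 genes). Simulated arrays served to check that its mean estimates recovered added changes. How often such changes pass adjustment is not reported here. Figures used matplotlib 3.10.9.

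The members, role groups and lists were chosen with earlier results of these data known. Genes named were the immune subunits and their counterparts, PA28, Psmb11, Psma8, Psmc3ip, the highest and lowest of each other role group, the smallest p-values of each list (3 in the proteasome partner and peptide-loading lists, 1 in the others), and Usp8. Psmd1, Psmd14, Psmd11, Tap1 and Nfe2l1 were added with their values in view, as were other list genes named beyond this rule. A gene that this rule names in the peptide-loading list is not reported here. The alternatives covered scaling (quantile, median), background (normexp, offset 50), the filter (none, or all 4 arrays), probe choice (mean of kept probes), a replicate block, an eBayes trend, retained outlier spots, and leaving out single arrays.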

Additional observations from a re-analysis of the deposited data

How the results depend on the processing

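Under every alternative 0 of the proteasome genes and 0 of all genes passed adjustment in limma, and the smallest adjusted p of a proteasome gene ran from 0.49 to 1. Proteasome genes at an unadjusted p under 0.05 (1 in the main setting) numbered 0 with quantile normalization, median scaling, no filter, the mean of kept probes and the replicate block, 2 with normexp and with the filter on all 4 arrays, 4 with an eBayes trend, and 0 to 1 with an array left out. Over all 13062 genes, those at an unadjusted p under 0.05 in limma numbered 518 higher and 452 lower in the main setting. They were 650 and 414 with an eBayes trend, 587 and 425 with normexp, and 641 and 697 with the replicate block. Quantile normalization gave 500 and 420, median scaling 337 and 485, and the mean of kept probes 490 and 471. With the filter on all 4 arrays they were 516 and 426 of 12533 genes, and with no filter 372 and 457 of 28472. With the replicate block, the difference of every gene kept its value. The shared replicate numbers are not stated to mark a shared litter or day; deviations of same-numbered arrays correlated at 0.32 across genes.

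With quantile normalization the median difference was 0.013 for alpha subunits, 0.056 for non-ATPase subunits, 0.028 for the constitutive core, 0.070 for partners and -0.14 for DP markers, and Psmb10 minus Psmb7 shifted by 0.0060. Single differences were 0.027 for Psmb8, 0.14 for Psmb10, 0.080 for Psma3, 0.086 for Psme1, 0.11 for Sem1 and 0.10 for B2m. With normexp they were 0.072 for Psmb8, -0.42 for Ifit3, -1.12 for Nkg7, -0.17 for Rag2 and -0.15 for Car1. Over all 47 proteasome genes the median difference with quantile normalization was 0.056, against 0.0027 for all genes.

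With an array left out, medians ran from 0.058 to 0.19 for all proteasome genes, 0.027 to 0.19 for assembly factors, 0.073 to 0.25 for structural beta subunits, 0.083 to 0.22 for ATPases, 0.054 to 0.19 for non-ATPase subunits, 0.082 to 0.22 for the regulatory particle, 0.067 to 0.18 for PA28, 0.071 to 0.13 for partners and -0.0094 to 0.15 for the peptide-loading list. Separated genes numbered 27 to 45, genes with probes of both signs 2 to 10 (10 without USP8ff_CD4Cre replicate 2), and all genes at an unadjusted p under 0.05 from 419 (without USP8ff_CD4Cre replicate 2) to 1259, against 970. Separated genes numbered 27 without USP8ff_CD4Cre replicate 2 (35.9% of all genes) and 45 without its replicate 1 (39.8%). They numbered 34 without USP8ff replicate 1 (37.8%) and 32 without USP8ff replicate 2 (43.8%). The main setting had 24.3% of all genes, so these counts cannot be set beside its 27. Medians of proliferation genes ran from 0.28 to 0.70, interferon-stimulated genes from -0.35 to -0.070 and DP markers from -0.12 to -0.028. Medians of macrophage markers ran from -0.42 to -0.18, NK markers from -1.74 to -0.56 and epithelial markers from -0.075 to 0.12. Those of B cell markers ran from -0.12 to 0.090 and erythroid markers from -0.045 to 1.14.

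Marker medians also moved with the filter. With no filter they were -0.61 (mature), -0.23 (macrophage), -0.029 (epithelial) and -0.56 (NK). With the filter on all 4 arrays they were -0.20, -0.45, -0.13 and -0.35. With normexp they were -0.15 (macrophage), -0.0088 (epithelial) and -0.47 (NK), and with the mean of kept probes -0.14 (DP) and 0.075 (epithelial).

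Signs turned for genes near 0. With the mean of kept probes Psmf1 had -0.0045 and Psme4 0.014. With an array left out, differences ran from -0.25 to 0.14 for Psma4 (positive without USP8ff_CD4Cre replicate 1), -0.037 to 0.035 for Psmd4 (positive without USP8ff replicate 1, and 0.018 without USP8ff_CD4Cre replicate 1), -0.039 to 0.030 for Psme4 (positive without USP8ff_CD4Cre replicate 1, and 0.026 without USP8ff replicate 2), -0.062 to 0.25 for Psmb9 (negative without USP8ff replicate 2), -0.056 to 0.16 for Psmd10 and -0.024 to 0.36 for B2m (both negative without USP8ff_CD4Cre replicate 2). The cause was not tested. Psma8 and Psmb11 are limited by signal near background.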
